A study of Bos taurus with 6 samples.

Results

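The genes described here are 10 genes through which muscle and fat take up and bind fatty acids, chosen by name from the 23015 gene rows counted in each library. They are lipoprotein lipase (LPL), its capillary anchor GPIHBP1 and its inhibitor ANGPTL4, the fatty acid translocase CD36, the fatty acid transport proteins SLC27A1, SLC27A4 and SLC27A6, and the fatty acid binding proteins FABP3, FABP4 and FABP5. All 10 were present in the count files. They were measured in longissimus thoracis (LT) muscle of Hanwoo (Korean native cattle) steers raised conventionally on commercial feed and grouped by image analysis of the ribeye. The comparison was between 3 steers with a high number of fine marbling particles (NFMP), namely 3-8, 10-8 and 10-9 at 32.5, 33.8 and 34.5 months of age, and 3 with a low NFMP, namely 3-1, 3-3 and 10-16 at 37.8, 33.7 and 35.4 months. Each steer gave 1 library of whole muscle, so muscle fibres, the marbling fat itself, vessels and connective tissue were sequenced together.

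Triglyceride reaches muscle and fat in the core of lipoproteins. LPL, made by muscle fibres and adipocytes, is carried by GPIHBP1 across the capillary wall, where it releases fatty acids, and ANGPTL4 inactivates it in fasting. CD36 and the SLC27 proteins help the released fatty acids into the cell. Inside, a small binding protein takes them up, mainly FABP3 in muscle fibres and heart and FABP4 in adipocytes, while FABP5 is widespread. CD36 and FABP4 are also made by capillary endothelium and macrophages, so neither marks a single cell type.

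Of the 10 genes, 9 had enough reads to be tested and none differed between the high- and low-NFMP groups at an adjusted p below 0.05 (edgeR's quasi-likelihood test, Benjamini-Hochberg adjustment over all 15039 tested rows). Over all tested rows, 0.685% reached that threshold. SLC27A1 alone had an unadjusted p below 0.05 in this test, as did 11.5% of all rows, and no member also passed the fold change of 2 used in the study's methods, as did 3.90% of all rows. DESeq2, and limma after quantile normalization, likewise gave 1 member at an unadjusted p below 0.05 and 0 at an adjusted p below 0.05. In all 10 genes the steers of the groups overlapped, while the groups were apart in 17.1% of tested rows. For 4 of the most abundant members, CD36, LPL, FABP3 and FABP4, the highest and the lowest of the 6 steers were both high-NFMP steers, with steer 10-9 the lowest in all 4.

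Counts assigned to genes summed to between 16283873 and 17192750 per library. Values below are normalized counts, that is, raw counts brought to a common effective library size, unless a sentence says otherwise. The libraries were made by priming at the poly(A) tail, so a longer transcript does not give more reads, and levels of different genes are compared as CPM (counts scaled to an effective library size of 1000000) without division by length. Each pair of libraries differed far beyond sampling noise, with a chi-square per degree of freedom of at least 35.5. In whole muscle, more cells of a type and more RNA per cell cannot be told apart.

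**Figure D1:**
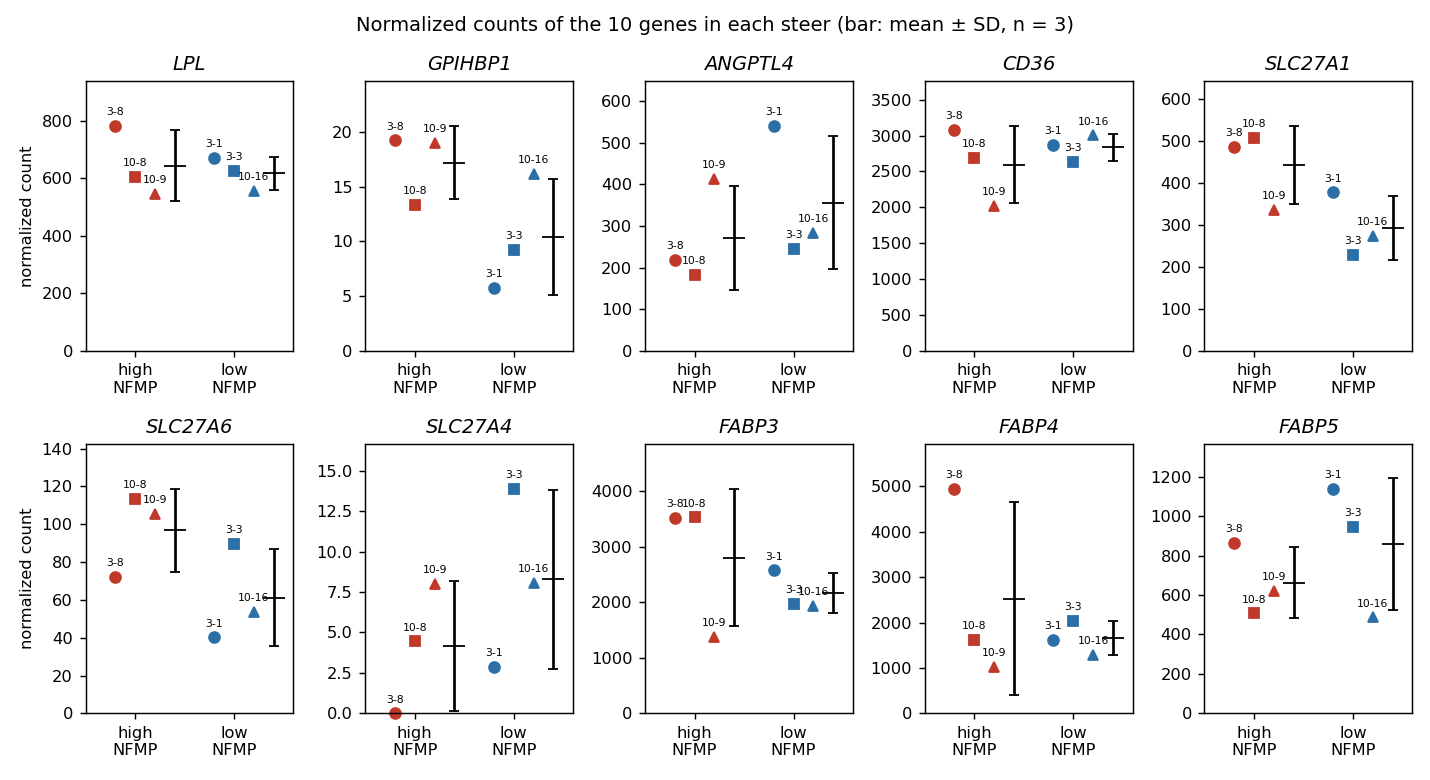
Normalized counts (vertical axes, each from 0) of the 10 genes in each of 6 steers, with high-NFMP steers in red and low-NFMP steers in blue, and the mean ± SD of each group (n = 3) in black. The groups overlap in every panel, and FABP4 of steer 3-8, at 4945, stands above the other 5 steers, which lie between 1019 and 2044.

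By mean level the members fell into clear tiers. CD36 led at 162 CPM (range over the 6 steers 120 to 183), followed by FABP3 at 148 (81.7 to 209.8) and FABP4 at 124 (60.7 to 294). These 3 were not in a fixed order, since CD36 was above FABP3 in 4 of 6 steers and FABP3 above FABP4 in 4 of 6. FABP5 at 45.2 and LPL at 37.5 CPM formed the next tier, again in no fixed order (FABP5 higher in 4 of 6), and FABP4 exceeded FABP5 in 6 of 6 steers. SLC27A1 averaged 21.9 and ANGPTL4 18.7 CPM. Although its mean was the higher, SLC27A1 exceeded ANGPTL4 in only 2 of 6 steers, the high-NFMP steers 3-8 and 10-8. SLC27A6 (4.70), GPIHBP1 (0.821) and SLC27A4 (0.370) were scarce.

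LPL, the enzyme that frees fatty acids from lipoproteins, was among the steadiest members. It was at 781, 606 and 545 normalized counts in the high-NFMP steers 3-8, 10-8 and 10-9, and at 669, 626 and 556 in the low-NFMP steers 3-1, 3-3 and 10-16. The highest steer was only 1.43 times the lowest, and the group means were 644 ± 123 and 617 ± 56.9 (SD, n = 3). The log2 fold change of high over low NFMP was 0.06 (± 0.19 standard error, SE, edgeR adjusted p = 0.928), with a 95% interval from -0.35 to 0.48, so a change of 2-fold in either direction lay outside the interval.

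GPIHBP1, which holds LPL at the capillary wall, was counted rarely, with 19, 12 and 19 raw reads in steers 3-8, 10-8 and 10-9 and 6, 10 and 16 in steers 3-1, 3-3 and 10-16. The high-NFMP steers lay in the upper part, but low-NFMP steer 10-16 stood above high-NFMP steer 10-8. Normalized, this was 17.2 ± 3.36 against 10.4 ± 5.30 (SD, n = 3), for a log2 fold change of 0.73 (± 0.55 SE, edgeR adjusted p = 0.651). Its interval, from -0.45 to 1.91, held both no difference and a 3-fold one. The log2 fold change lay between 0.44 (without steer 3-1) and 1.22 (without steer 10-16) when a steer was left out.

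ANGPTL4, the LPL inhibitor, was at 218, 182 and 413 normalized counts in the high-NFMP steers 3-8, 10-8 and 10-9 and at 541, 245 and 284 in the low-NFMP steers 3-1, 3-3 and 10-16. The 2 lowest steers were high-NFMP and the highest was low-NFMP, but steer 10-9 was second of the 6. The means were 271 ± 124 and 357 ± 161 (SD, n = 3), for a log2 fold change of -0.39 (± 0.36 SE, edgeR adjusted p = 0.717, 95% interval -1.20 to 0.41). Of the steers left out in turn, only steer 3-1, the oldest at 37.8 months, changed the direction, to a log2 fold change of 0.03. Without steer 10-9 it grew to -0.82 (unadjusted p = 0.027 and adjusted p = 0.409 by edgeR). With age as a term it was 0.28 (unadjusted p = 0.388 by edgeR).

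The ratio of ANGPTL4 to LPL reads was taken within each library, where it needs no library size. It was 0.279, 0.301 and 0.759 in high-NFMP steers 3-8, 10-8 and 10-9, against 0.808, 0.391 and 0.510 in the low-NFMP steers 3-1, 3-3 and 10-16. LPL outnumbered its inhibitor in all 6 steers. The log2 ratio was -1.32 ± 0.80 in the high-NFMP and -0.88 ± 0.53 in the low-NFMP group (SD, n = 3), and the difference of -0.45 was within the spread between steers (exact two-sided permutation test p = 0.5, adjusted over 2 ratios p = 1). This design of 3 against 3 cannot give an exact p below 0.1.

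CD36, the membrane receptor that gathers long-chain fatty acids at the cell surface, was the most abundant member and varied little. It was at 3078, 2693 and 2015 normalized counts in the high-NFMP steers 3-8, 10-8 and 10-9 and at 2875, 2628 and 3003 in the low-NFMP steers 3-1, 3-3 and 10-16. The low-NFMP steers lay inside the range of the high-NFMP steers. The means were 2595 ± 538 and 2835 ± 190 (SD, n = 3), and the log2 fold change was -0.13 (± 0.19 SE, edgeR adjusted p = 0.835). The 95% interval, from -0.54 to 0.29, leaves out a 2-fold change in either direction. Its spread within groups, an SD of 0.23 on the log2 scale, was at percentile 27.4 of all tested rows, and that of LPL, 0.21, at percentile 22.5.

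SLC27A1, also called FATP1 and the main transport protein of its family in muscle and fat, had the smallest p of the members. It was at 485, 506 and 336 normalized counts in the high-NFMP steers 3-8, 10-8 and 10-9 and at 377, 228 and 274 in the low-NFMP steers 3-1, 3-3 and 10-16. The groups overlapped through 1 pair of steers, since high-NFMP steer 10-9 lay below low-NFMP steer 3-1. The means of 442 ± 92.7 and 293 ± 76.5 (SD, n = 3) gave a log2 fold change of 0.60 (± 0.24 SE, 95% interval 0.09 to 1.10), with an unadjusted p of 0.0234 and an adjusted p of 0.343 by edgeR. The log2 fold change stayed between 0.44 and 0.84 over 14 alternative fits, with adjusted p between 0.230 and 0.658. Its unadjusted p rose above 0.05 when steer 3-8, 10-8, 3-3 or 10-16 was left out, reaching 0.120 without steer 3-3. SLC27A1 held between 64.7% and 85.7% of the reads of the 6 SLC27 genes in a library.

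SLC27A6, a family member best known from heart, was the next most abundant transporter of the members. It was at 71.9, 113 and 105 normalized counts in the high-NFMP steers 3-8, 10-8 and 10-9 and at 40.2, 89.8 and 53.5 in the low-NFMP steers 3-1, 3-3 and 10-16. Of the low-NFMP steers, only 3-3 lay above a high-NFMP steer, which was 3-8. The means were 96.9 ± 22.0 and 61.2 ± 25.7 (SD, n = 3), for a log2 fold change of 0.66 (± 0.34 SE, edgeR adjusted p = 0.489, 95% interval -0.07 to 1.39). Without steer 3-3 the log2 fold change was 1.04 and the unadjusted p 0.014 by edgeR, the only fit in which a member passed the p and fold change threshold, and without steer 3-1 it was 0.43.

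SLC27A4, the transport protein known from intestine and skin, was close to the limit of detection. Its raw counts were 0, 4 and 8 in steers 3-8, 10-8 and 10-9 and 3, 15 and 8 in steers 3-1, 3-3 and 10-16. A count of 0 in steer 3-8 allows a level of up to 0.184 CPM, where the limit is set at 3 counts and covers counting error only. The gene did not pass the filter on low counts and was not tested with the others. In the fit without a filter its log2 fold change was -0.98 (± 0.92 SE, edgeR unadjusted p = 0.292). The 95% interval, from -2.82 to 0.86, was wide and held no difference.

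**Figure D2:**
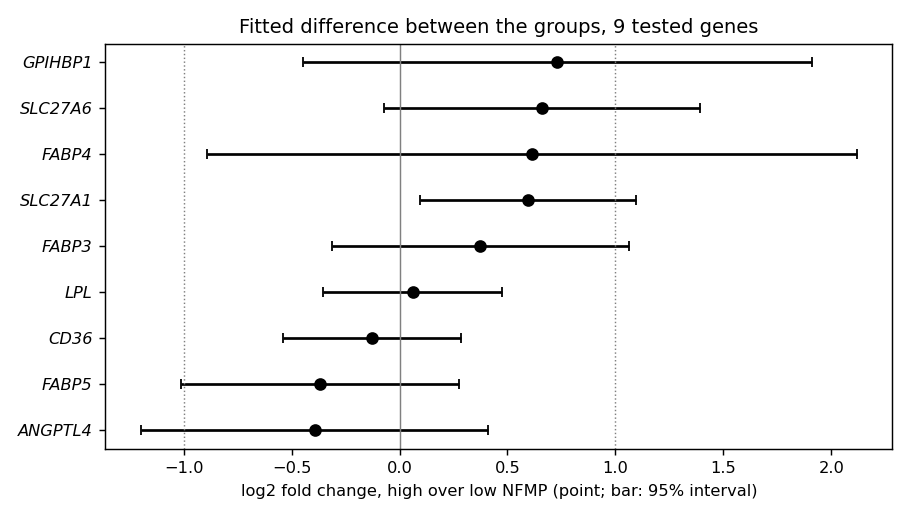
Fitted log2 fold change of high over low NFMP (horizontal axis) for the 9 tested genes, with 95% intervals as bars and dotted lines at a 2-fold change in either direction. The interval of SLC27A1, from 0.09 to 1.10, is the only one that leaves out 0, and those of FABP4 and GPIHBP1 are the widest.

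FABP3, FABP4 and FABP5 together held between 98.4% and 99.6% of the reads of the 8 FABP family genes listed in the files. In the cattle assembly ARS-UCD2.0, as tabulated by RefSeq, FABP4 lies between FABP9 and FABP12, and FABP5 is next to PMP2, another family member. The listed neighbours were nearly silent in this muscle, with raw counts of at most 9 for PMP2 and 1 for FABP12. That assembly is not the one named in the study's methods, so no coordinates are given from it. In it, FABP5, SLC27A4 and ANGPTL4 each overlap a long noncoding RNA gene. Of these only LOC104974070, which overlaps FABP5, was listed in the files, with 4 to 31 raw reads against 456 to 1190 for FABP5. The sources used here do not say whether reads were counted by strand, so reads of such pairs cannot be told apart.

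FABP3, the binding protein of muscle fibres, was at 3514, 3525 and 1373 normalized counts in the high-NFMP steers 3-8, 10-8 and 10-9. In the low-NFMP steers 3-1, 3-3 and 10-16 it was at 2573, 1976 and 1938. Steers 3-8 and 10-8 were the 2 highest and steer 10-9 the lowest, so the high-NFMP group enclosed the low-NFMP group. The means were 2804 ± 1239 and 2162 ± 356 (SD, n = 3), and the log2 fold change was 0.37 (± 0.31 SE, edgeR adjusted p = 0.684, 95% interval -0.31 to 1.06). The size of the difference rested on single steers. The log2 fold change was 0.18 without steer 3-8 and 0.19 without steer 10-8. It was 0.72 without steer 10-9 (unadjusted p = 0.0030 and adjusted p = 0.167 by edgeR). Over all 14 alternatives the adjusted p lay between 0.167 and 0.881.

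FABP4, the binding protein of adipocytes, varied most among the abundant members. It was at 4945, 1618 and 1019 normalized counts in the high-NFMP steers 3-8, 10-8 and 10-9 and at 1617, 2044 and 1294 in the low-NFMP steers 3-1, 3-3 and 10-16. Steer 3-8 had 4.85 times the level of steer 10-9 of the same group, whereas the low-NFMP steers were close together. The within-group SD on the log2 scale, 0.86, was at percentile 94.3 of all tested rows, against percentile 81.7 for FABP3. The means were 2527 ± 2115 and 1652 ± 376 (SD, n = 3), for a log2 fold change of 0.61 (± 0.61 SE, edgeR adjusted p = 0.750, 95% interval -0.89 to 2.12).

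The sign of the FABP4 difference rested on steer 3-8. Without it the log2 fold change was -0.33 (adjusted p = 0.548 by edgeR), while without steer 10-9 it was 0.99. Among steers whose label begins with 3, steer 3-8 stood above 3-1 and 3-3. Among those beginning with 10, low-NFMP steer 10-16 lay between the 2 high-NFMP steers. What this label number means is not given in the labels. With it as a term the log2 fold change was 0.74, with an unadjusted p of 0.0425 and an adjusted p of 0.472 by edgeR, and with age as a term it was -0.11.

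FABP5, the widespread binding protein also found in macrophages and endothelium, was at 862, 507 and 619.8 normalized counts in the high-NFMP steers 3-8, 10-8 and 10-9. In the low-NFMP steers 3-1, 3-3 and 10-16 it was at 1139, 946 and 487. The 2 highest steers were low-NFMP, and so was the lowest. The means were 663 ± 182 and 857 ± 335 (SD, n = 3), for a log2 fold change of -0.37 (± 0.29 SE, edgeR adjusted p = 0.671, 95% interval -1.01 to 0.27). All 3 steers whose label begins with 3 were above all 3 whose label begins with 10, regardless of NFMP group. With that number as a term the log2 fold change of FABP5 moved from -0.37 to -0.03. With a steer left out it lay between -0.62 (without 10-16, unadjusted p = 0.0225 and adjusted p = 0.403 by edgeR) and -0.11 (without 3-1), and it was -0.61 without 3-8 and -0.18 without 10-8.

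**Figure D3:**
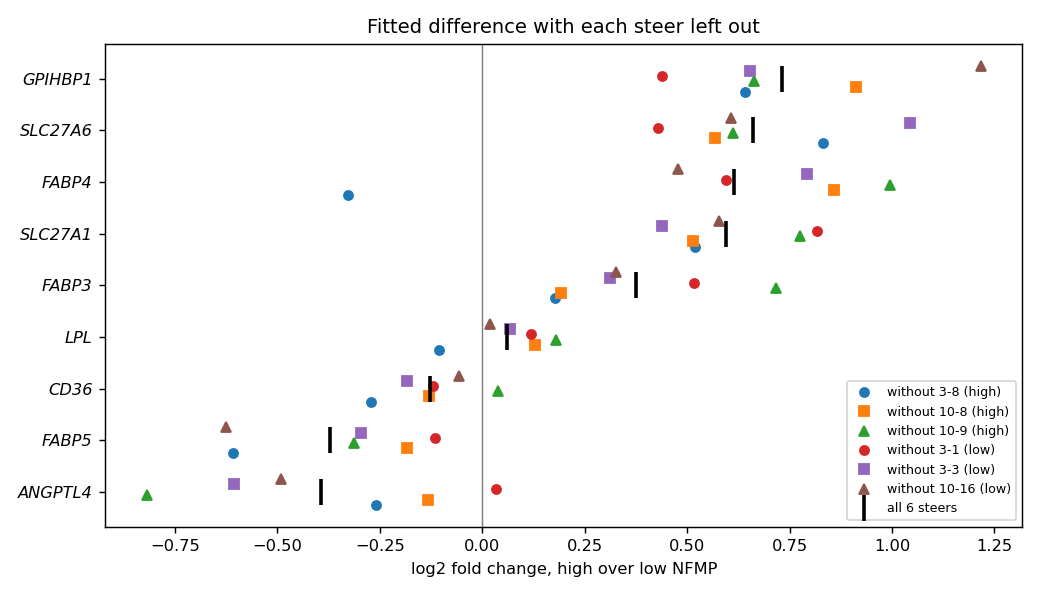
Log2 fold change of high over low NFMP (horizontal axis) of the 9 tested genes with all 6 steers (black lines) and with each steer left out (symbols). The FABP4 value without steer 3-8, at -0.33, lies apart from the other FABP4 values, which are between 0.48 and 0.99.

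The muscle FABP3 and the adipocyte FABP4 were set against each other within each library. FABP3 reads per FABP4 read were 0.711, 2.18 and 1.35 in high-NFMP steers 3-8, 10-8 and 10-9, against 1.59, 0.967 and 1.50 in the low-NFMP steers 3-1, 3-3 and 10-16. FABP3 was the more abundant in 4 of 6 steers, and the lowest and the highest ratio both belonged to high-NFMP steers. As a share of the summed reads of both genes, FABP3 ranged from 41.5% in steer 3-8 to 68.5% in steer 10-8. The log2 ratio was 0.35 ± 0.81 in the high-NFMP and 0.40 ± 0.39 in the low-NFMP group (SD, n = 3). The difference of -0.05 was far smaller than the spread (exact two-sided permutation test p = 1, adjusted over 2 ratios p = 1). Without steer 3-8 it was 0.38 (exact permutation p = 0.6).

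Markers of the cell types in the muscle were read from the same fit. The tissue label held, since the 14 muscle fibre markers summed to between 48958 and 81992 CPM, led by the muscle actin gene ACTA1. The 13 adipocyte markers, without FABP4, LPL and CD36, summed to 701, 528 and 357 CPM in steers 3-8, 10-8 and 10-9 and to 340.4, 366 and 354 in steers 3-1, 3-3 and 10-16. No adipocyte marker was at 0 in a library. Of these 13, none had an adjusted p below 0.05, 6 had an unadjusted p below 0.05 by edgeR, beside 11.5% of all tested rows, and all 6 of those were higher in the high-NFMP group. The fatty acid synthase gene FASN, with a log2 fold change of 1.11, was the 1 that also passed the fold change of 2, beside 3.90% of all tested rows. Of the 13, 12 had a positive log2 fold change. The groups lay apart for 5 of them, all higher in the high-NFMP group, beside 17.1% of all tested rows. The median log2 fold change of the 13 was 0.69, that of the 9 tested members 0.37 and that of all tested rows 0.02. ADIPOQ, the adipocyte hormone adiponectin, had 1195 ± 359 against 771 ± 154 normalized counts (SD, n = 3), with an unadjusted p of 0.0141 and an adjusted p of 0.291 by edgeR. PLIN1, the lipid droplet coat protein of adipocytes, had 291 ± 213 against 177 ± 56.3 and an adjusted p of 0.633.

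Steer 3-8, with the highest FABP4, also had the highest adipocyte marker sum and the lowest muscle fibre marker sum. The part of adipocyte content in the FABP4 and LPL levels was not tested. FABP4 did not follow the adipocyte sum in every steer. Steer 10-8 had the second highest adipocyte sum, 528 CPM, but its FABP4, 1618 normalized counts, was within the range of the low-NFMP steers. The markers in that sum did not move together in steer 10-8. PLIN4, at 2829 normalized counts, was the highest of the 6 steers, LEP and ADIG, at 47.8 and 18.9, were the lowest, and the other markers lay between. Per 100 reads of the 13 adipocyte markers, FABP4 had 42.0, 18.2 and 17.0 reads in steers 3-8, 10-8 and 10-9 and 28.3, 33.3 and 21.8 in steers 3-1, 3-3 and 10-16, so both the highest and the 2 lowest shares were in the high-NFMP group.

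The LPL share has the adipocyte marker sum as its denominator, and its differences between steers follow that sum as well as LPL, whose own level had a log2 fold change of 0.06. Per 100 adipocyte marker reads LPL had 6.63, 6.83 and 9.08 reads in high-NFMP steers 3-8, 10-8 and 10-9, against 11.7, 10.2 and 9.37 in the low-NFMP steers 3-1, 3-3 and 10-16. On this share all 3 high-NFMP steers were below all 3 low-NFMP steers, at 7.52 ± 1.36 against 10.4 ± 1.18 (SD, n = 3). The exact two-sided permutation p was 0.1, the smallest this design allows, and 0.6 after adjustment over the 6 shares of this kind that were computed. These shares were chosen after the counts had been seen. The gap between the nearest steers, 10-9 and 10-16, was small.

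FABP3 was next set against the muscle fibre markers. Per 100 muscle fibre marker reads it had 0.427, 0.256 and 0.130 reads in steers 3-8, 10-8 and 10-9 and 0.300, 0.214 and 0.172 in steers 3-1, 3-3 and 10-16. The muscle fibre sum is the denominator of this share, so the low sum of steer 3-8 in itself raises its share. Steers 3-8 and 10-8, with the lowest and the highest muscle fibre sum, had FABP3 close together at 3514 and 3525 normalized counts. The range of the shares, 3.28-fold, was wider than that of FABP3 itself, 2.57-fold. The groups overlapped (exact permutation p = 0.7, adjusted p = 0.8).

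**Figure D4:**
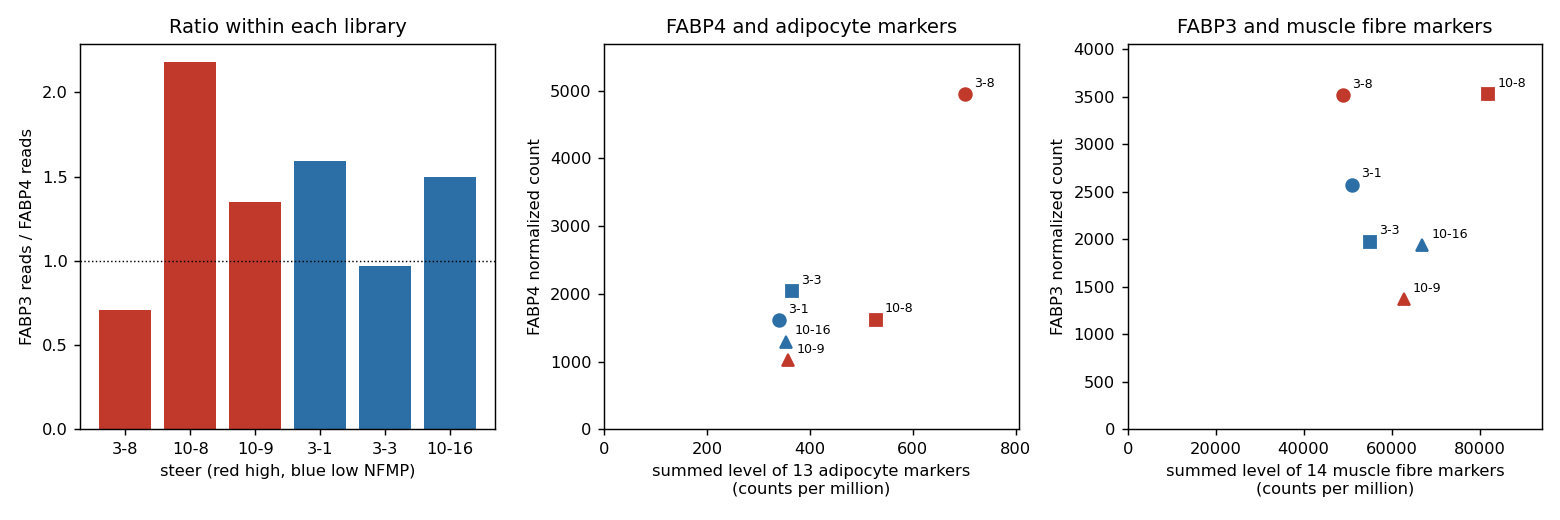
Left, FABP3 reads per FABP4 read in each steer, with a dotted line at 1. Middle and right, normalized counts of FABP4 and FABP3 (vertical axes) against the summed level in CPM of 13 adipocyte and 14 muscle fibre markers (horizontal axes), with high-NFMP steers in red and low-NFMP steers in blue. Steer 3-8 lies apart at 4945 FABP4 counts and a summed adipocyte marker level of 701 CPM, and FABP3 shows no order by the muscle fibre sum.

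The other cell types that make CD36, FABP4 and FABP5 were also read, and none of their markers, nor any of the muscle fibre list, had an adjusted p below 0.05 by edgeR. The 9 macrophage markers summed to between 49.1 and 75.0 CPM in the high-NFMP and between 35.8 and 64.2 in the low-NFMP steers. Of these, 7 had a positive log2 fold change, with a median of 0.57 over the list, and 3 had an unadjusted p below 0.05, beside 11.5% of all tested rows, all 3 higher in the high-NFMP group. These were C1QA, C1QC and AIF1, with log2 fold changes of 0.73, 0.85 and 1.04. The groups lay apart for 3 of the 9, C1QA among them, all higher in the high-NFMP group, beside 17.1% of all tested rows. The lysosome protein CD68, at 12.7 ± 5.91 against 13.8 ± 10.3 normalized counts (SD, n = 3), and the scavenger receptor CD163, at 156 ± 100.2 against 231 ± 97.9, were the 2 with a negative value.

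The 10 endothelium markers summed to between 99.9 and 142 CPM against between 93.4 and 118 CPM, with 6 positive log2 fold changes and a median of 0.14. PECAM1, an endothelial adhesion protein, had 465 ± 97.9 against 469 ± 130 normalized counts (SD, n = 3), and CDH5, the endothelial cadherin, 154 ± 4.75 against 172 ± 9.69, with all 3 high-NFMP steers below all 3 low-NFMP steers (adjusted p = 0.813 by edgeR). The groups lay apart for 2 of the 10, 1 in each direction, beside 17.1% of all tested rows. The 1 marker with an unadjusted p below 0.05 was the tight junction gene CLDN5, which was higher in all 3 high-NFMP steers, at 124 ± 16.6 against 65.1 ± 25.7 (edgeR unadjusted p = 0.00987, adjusted p = 0.255). The 7 fibroblast markers summed to between 733 and 934 CPM against between 575 and 759, with 5 positive log2 fold changes and a median of 0.23. The 1 with an unadjusted p below 0.05, PDGFRA, had a log2 fold change of -0.51. Of the 14 muscle fibre markers, 11 had a positive log2 fold change, with a median of 0.10, and ACTA1 and CKM, the muscle creatine kinase, had adjusted p of 0.750 and 0.749. The 1 with an unadjusted p below 0.05 was MYL3, a slow muscle myosin light chain, at 3212 ± 194 against 5511 ± 1484 and lower in all 3 high-NFMP steers (log2 fold change -0.78, edgeR unadjusted p = 0.00253, adjusted p = 0.145), while the slow myosin genes MYH7 and MYL2 had log2 fold changes of 0.32 and 0.13. FASN, C1QA, C1QC, AIF1, CLDN5, PDGFRA, MYL3, MYH7 and MYL2 are named because of these values. The part of these cell types in the member levels was not tested.

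The same pathway was then followed beyond the members through 38 further genes of lipoprotein lipolysis, fatty acid transport and binding, of which 36 were in the files and 24 passed the filter. None had an adjusted p below 0.05 by edgeR. At an unadjusted p below 0.05, 1 gene had a higher and 2 genes a lower level in the high-NFMP group. Both of the latter also passed the fold change of 2, as did 3.90% of all tested rows. These 3 of 24 stand beside 11.5% of all tested rows at that p, and the groups were apart in 5 of the 24, beside 17.1% of all rows. DESeq2 and limma after quantile normalization gave the same counts, 3 and 0. The median log2 fold change of the 24 was 0.10.

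LIPG, the endothelial lipase that acts mainly on high-density lipoprotein, was counted 19, 9 and 7 times in steers 3-8, 10-8 and 10-9 and 21, 48 and 40 times in steers 3-1, 3-3 and 10-16. The groups did not overlap, and the log2 fold change was -1.52 (± 0.52 SE, unadjusted p = 0.0105 and adjusted p = 0.261 by edgeR). It kept an unadjusted p below 0.05 and a fold change above 2 whichever of the 6 steers was dropped. FABP1, the binding protein of liver, was counted 18, 15 and 22 times against 76, 35 and 32 times, without overlap, a log2 fold change of -1.26 (± 0.45 SE, unadjusted p = 0.0128 and adjusted p = 0.279 by edgeR). Without steer 3-1, which had 76 reads, its log2 fold change was -0.77 (unadjusted p = 0.143) and it was no longer past the threshold. Nor was it with age as a term, at -0.63 (unadjusted p = 0.244 by edgeR). The higher gene, CAVIN1, which shapes the caveolae of the cell membrane, had a log2 fold change of 0.44 (unadjusted p = 0.0245, adjusted p = 0.348).

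Over the 6 steers, the tested rows with at least 100 normalized counts whose log2 levels ran most like FABP3 were ABCA1, SPARC and ZBTB33, with Pearson's r of 0.97 each among 8728 rows compared. ABCA1, the cholesterol exporter, was at 869 and 745 normalized counts in steers 3-8 and 10-8, where FABP3 was highest, and at 460.3 in steer 10-9, where it was lowest. Those most like FABP4 were LAMB1, ACOT7 and RBMS2, with r of 0.99, 0.98 and 0.98. LAMB1, a laminin of basement membranes, was at 537 in steer 3-8 and between 199.6 and 319 in the other 5. Over the 5 steers without 3-8, r was 0.93, 0.94 and 0.89 for these 3 rows. With 6 libraries and so many rows, such r values are a description of these steers.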

How the data were processed

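LT muscle RNA of 6 steers was sequenced from poly(A)-primed 3′ libraries, named as SENSE 3′ in the study's methods and Quant-Seq in the labels. The deposited values are unnormalized counts of reads on each gene symbol. The methods name Tophat2 with HTSeq, and elsewhere Bowtie2 with multiply aligned reads counted too, so related genes can share reads. The sources used here do not say which route made these counts. Groups came from the sample titles.

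The test was run with edgeR 4.0.16 under R 4.3.3. Its default filter (minimum count 10, minimum total 15) kept 15039 of 23015 rows. TMM factors lay between 0.915 and 1.08. High NFMP was set against low NFMP by the quasi-likelihood test, with robust dispersion estimates. Standard errors came from the log2 fold change and the F statistic, and 95% intervals from the t distribution at the fitted degrees of freedom. Ratios were compared by exact two-sided permutation. Alternatives used DESeq2 1.42.0, limma 3.58.1 (log2 of count + 1, quantile-normalized), other filters and scalings, a term for age or the first label number, and fits that left out 1 steer each. The test was tried on simulated data.

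Named were the 10 members, pathway genes past a threshold, 3 rows most like FABP3 and FABP4 each, and the leading markers. The members and lists were chosen with earlier results of these data known. With 1 library per steer, p-values measure the spread between steers. The first label number is shared by steers of both groups, and its meaning is not explained. Limits from a count of 0 cover counting error only, since reads carried no molecular identifiers. The RefSeq gene table (ARS-UCD2.0) gave names and neighbours only, and all 10 members matched by symbol.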

Additional observations from a re-analysis of the deposited data

How the results depend on the processing

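No member reached an adjusted p below 0.05 by edgeR, DESeq2 or limma in any alternative. Of 152 alternative values of single genes, 144 kept their direction. These include LIPG and FABP1, which were followed because they passed the p and fold change threshold and which never turned. All 8 reversals were in members. LPL turned to -0.0052 with library totals alone and to -2.02e-04 with age as a term, and with a steer left out it lay between -0.10 (without 3-8) and 0.18. FABP4 turned to -0.11 with age as a term and lay between -0.33 (without 3-8) and 0.99 (without 10-9). ANGPTL4 turned to 0.28 with age as a term and lay between -0.82 (without 10-9) and 0.035 (without 3-1), and CD36 lay between -0.27 (without 3-8) and 0.039 (without 10-9). Leaving out a steer gave between 0 and 1 members past the threshold on p and fold change, the 1 being SLC27A6 without steer 3-3. It gave between 2 and 3 other pathway genes past it, against 2 with all steers and 1 with at least 10 counts in every library (FABP1) or with age as a term (LIPG). The FABP3 to FABP4 difference was -0.80 among steers with the first label number 3 and turned to 0.19 among those with 10, and lay between -0.43 and 0.38 with a steer left out, turning positive without steer 3-8, 3-1 or 10-16. The ANGPTL4 to LPL difference was -1.01 and -0.09 in the same split and lay between -0.91 and -0.16 with a steer left out. Over all rows, 103 had an adjusted p below 0.05, against 240 with no filter, 291 with DESeq2, 64 with limma, 31 with age as a term and 28 to 82 with a steer left out (33 without 3-8, 41 without 10-8, 28 without 3-3 and 63 without 10-16). Past the p and fold change threshold were 586, against 969 with no filter, 364 with at least 10 counts in every library and 630 to 744 with a steer left out. The cause was not tested. No paired analysis was possible because the labels pair no steer of one group with a steer of the other. The first label number, which steers of both groups share and whose meaning is not explained, was fitted as a term instead. GPIHBP1 and SLC27A4 had at most 19 and 15 reads in a library.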
